A study of Mus musculus with 30 samples.

Results

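Hearts of mice given angiotensin II for 3 days were compared with hearts of mice given it for 1 day, on 3 arrays per day. These 6 arrays, out of 30 in a study of brain, heart, kidney and vessel, were taken by their titles alone, heart at T3 and heart at T1. All mice were C57BL/6 males of 8 to 10 weeks. In both groups an osmotic pump delivered angiotensin II at 1500 ng/kg/min in a Ringer's solution acidified with acetic acid, so the comparison holds treatment and dose the same and changes the day of sampling. Hearts of day 0, whose mice had no angiotensin II, and of day 7 gave 3 arrays each. They entered the estimate of spread and a description, but no difference between day 3 and day 1. RNA was total RNA, labelled with biotin and hybridized to Affymetrix Mouse Genome 430 2.0 arrays. Whether hearts were taken whole, whether day 0 mice carried a pump, and which organs came from the same mouse are not stated in the sources used here. The titles call the replicates biological without naming animals or litters, so the tests measure the spread between these arrays, which may be partly technical.

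Angiotensin II is the effector peptide of the renin-angiotensin system. It constricts vessels, raises blood pressure and acts on cells of the heart through its type 1 receptor. A sudden rise in load is known to induce stress genes in cardiomyocytes, such as immediate early transcription factors and heat shock proteins, and it draws neutrophils and then monocytes into the myocardium. In the days that follow, cardiac fibroblasts divide, switch on a contractile and secretory programme and lay down collagen, which is the basis of fibrosis.

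Genes of matrix, fibroblasts and mitosis were among the rises at day 3, and genes of heat shock, chemokines, neutrophils and cardiac stress among the falls. Of 13966 genes tested, 607 (4.35%) passed an adjusted p below 0.05 between day 3 and day 1. Of these, 400 rose (2.86% of the genes tested) and 207 fell (1.48%), 58 of the rises and 50 of the falls by at least 2-fold. The test was limma's moderated test on log2(intensity + 16), with spread pooled over 4 heart groups and Benjamini-Hochberg adjustment over all genes tested, and folds are on that scale too. The 3 arrays of one day lay wholly above those of the other for 393 of the rises and 202 of the falls. Over all genes tested this was so for 11.5% with day 3 higher and 7.11% with day 3 lower, and the median difference of all genes was 0.01. Because RNA came from whole tissue, fewer cells of a type and less RNA per cell cannot be told apart for any gene below.

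The calls depended on which arrays were in the fit. With the 6 arrays of days 3 and 1 alone, limma called 0 genes, the smallest adjusted p was 0.12, and 1922 genes had an unadjusted p below 0.05. Without day 3 replicate 2 limma also called 0, with a smallest adjusted p of 0.057 and 2102 genes below 0.05 unadjusted. Without day 1 replicate 1 it called 9, without day 1 replicate 2 it called 102, and without day 3 replicate 3 it called 240. Without day 1 replicate 3 the count was 2057, and without day 3 replicate 1 it was 709. Of 87 named genes called with all 12 heart arrays, none passed in all 12 fits that left out 1 array, and none changed direction in any of them. None of the 37 gene lists described below held a call with the 6 arrays alone or without day 3 replicate 2. When day 1 replicate 1 was left out, the immediate early, acute phase and neutrophil, and T and natural killer cell lists held 1 fall each and the others 0.

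**Figure D1:**
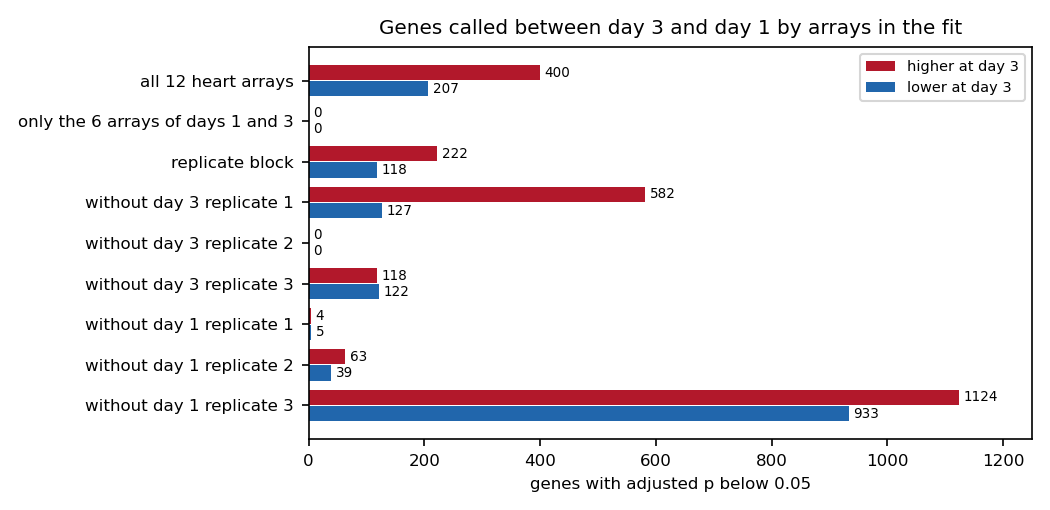
Bars give the number of genes with an adjusted p below 0.05 between day 3 and day 1, higher at day 3 (red) or lower at day 3 (blue), for all 12 heart arrays and for other sets of arrays or a replicate block. Among the fits plotted, counts run between 0 without day 3 replicate 2 and 1124 rises with 933 falls without day 1 replicate 3.

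A pair of arrays stood apart from their groups. Day 3 replicate 1 correlated with day 1 replicate 3 at 0.9875 across genes, close to its values of 0.9882 and 0.9776 with the other day 3 arrays. Day 1 replicate 3 correlated at 0.9829 and 0.9711 with the other day 1 arrays. With both left out, a choice made after the data were seen, 2127 genes were called, 1372 higher and 755 lower at day 3. Summed intensity of 6 cardiomyocyte markers was 83784 to 88732 on the day 3 arrays and 82021 to 90087 on the day 1 arrays. The sum of 4 atrial markers was 1261, 15434 and 14855 on the day 3 arrays, against 13762, 9285 and 14337 on the day 1 arrays. Day 3 replicate 1 was thus low in atrial RNA, with Myl7, the atrial light chain, at 588 there, and the part of this in the results was not tested. Ncr1, Ms4a1, Hba-a1, Myh4 and Actn3, markers of natural killer cells, B cells, red cells and skeletal muscle, did not pass the filter on low values.

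Fibroblast genes were higher at day 3 than at day 1. All 12 markers of resident fibroblasts tested had a positive difference, with a median of 0.54 on the log2 scale, against 0.01 over all genes and 52.8% of all genes positive. Of these, 2 rose and 10 did not pass. Relative to the 6-array mean of each gene, the list median stood at 0.01, 0.15 and 0.4 at day 3 and -0.38, -0.26 and -0.09 at day 1. On the untreated day 0 arrays it stood at 0.3, 0.11 and 0.36, so day 3 was near day 0 and day 1 was below both. Dpt, which encodes dermatopontin, a matrix protein of connective tissue, had intensities of 1747, 1840.1 and 2345 on the day 3 arrays, against 1024, 1108 and 1427 on the day 1 arrays. Every day 3 array was above every day 1 array, and the difference was 0.73 ± 0.15 (log2, ± SE, adjusted p = 0.02). Htra3, a secreted serine protease, gave 972, 888 and 1112 at day 3 and 494, 463 and 825 at day 1, a rise of 0.76 ± 0.18 (adjusted p = 0.035), and its other probe sets gave smaller differences of 0.08 to 0.3. Leaving out day 3 replicate 1 gave 3 rises, leaving out day 1 replicate 3 gave 6, and leaving out both gave 8, but leaving out day 3 replicate 3 or day 1 replicate 2 gave 0. The summed intensity of 5 fibroblast markers, Col1a1 and Postn among them, was 5648 to 10993 on the day 3 arrays and 3157 to 3906 on the day 1 arrays. Postn alone read 2349 to 5545 at day 3 and 587 to 1281 at day 1, and Col1a1 723 to 1720 and 321 to 443. Much of the difference in the sum thus comes from these called matrix genes, and it is not a separate measure of fibroblasts.

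Collagens, the fibrillar and network proteins of the matrix, showed the clearest shift among the matrix lists. Of 19 collagen genes, 17 passed the filter, 8 rose (47.1%), none fell and the median difference was 1.01. Col1a1 and Col1a2 encode the chains of type I collagen, the main collagen of scar. Col1a1 intensities were 723, 1273 and 1720.4 on the day 3 arrays, against 438, 443 and 321 on the day 1 arrays. The groups were apart, with replicate 1 the lowest of day 3, and Col1a1 rose by 1.52 ± 0.27 (adjusted p = 0.015), or 2.87-fold. Col1a2 gave 2976, 5247 and 6783 at day 3, against 1734, 1795 and 1495 at day 1, a rise of 1.49 ± 0.25 (adjusted p = 0.012). Its other probe sets differed by 0.06 to 2.01, so the size depends on the probe set.

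Col3a1, the type III chain that is laid down with type I in early repair, had 6090.1, 8105 and 10913 on the day 3 arrays and 3308, 3437 and 2469 on the day 1 arrays. Again no day 1 array reached a day 3 array, and the rise was 1.42 ± 0.25 (adjusted p = 0.015). Col5a1, which sets fibril diameter, gave 589.7, 868 and 1324 at day 3, against 400.5, 475 and 299.6 at day 1 (1.16 ± 0.25, adjusted p = 0.023). Col6a3, a chain of the microfibrillar type VI collagen, gave 517, 854 and 1175 at day 3, against 372, 501 and 310.3 at day 1 (1.03 ± 0.24, adjusted p = 0.034). The largest collagen rise was that of Col14a1, a fibril-associated collagen, at 1.72 ± 0.28 (adjusted p = 0.012). It read 191, 280.4 and 449.6 on the day 3 arrays, against 62.8, 58.9 and 118 on the day 1 arrays, and its other probe sets gave 0.13 to 1.18. The basement membrane chains Col4a1 and Col4a2, looked up after their values were seen, differed by -0.08 ± 0.23 and -0.24 ± 0.19 (adjusted p = 0.9 and 0.55).

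Collagen calls went up to 14 without day 3 replicate 1 and also with both outlying arrays left out, and were 9 without day 1 replicate 3. Leaving out day 1 replicate 2 gave 8 and leaving out day 3 replicate 3 gave 6. They were 0 without day 3 replicate 2 or day 1 replicate 1. The collagen median stayed between 0.75 and 1.34 under every alternative tried. The genes for collagen processing enzymes moved less: 1 of 18 tested rose, with a median of 0.29 and 17 positive. That gene was Pcolce, an enhancer of the protease that trims procollagen, with 1389, 1785 and 2063 at day 3 and 976, 874 and 684 at day 1. Its groups were apart and the rise was 1.03 ± 0.17 (adjusted p = 0.012). Processing enzymes reached 7 calls without day 3 replicate 1 and 8 with both arrays left out, and 2 without day 1 replicate 3.

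Matricellular proteins and genes of activated fibroblasts included the largest rises of the whole comparison. Of 24 tested, 8 rose (33.3%), none fell, and the median was 0.42. Cthrc1, a secreted protein of activated fibroblasts, had intensities of 91.7, 383 and 625 on the day 3 arrays and 43.3, 35 and 20.1 on the day 1 arrays. The day 3 arrays were all higher but spread widely, and the rise was 2.66 ± 0.66 (adjusted p = 0.042), the largest of the called genes whose groups were apart. Cilp, a matrix protein that binds TGF beta, gave 727, 1603 and 1937 at day 3, against 264, 274 and 308 at day 1. Its day 1 values were close together and far below day 3, with a rise of 2.16 ± 0.29 (adjusted p = 0.0091), or 4.47-fold.

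Postn encodes periostin, a marker of activated cardiac fibroblasts, and read 2349, 4729 and 5545 on the day 3 arrays, against 960.4, 1281 and 587 on the day 1 arrays. It rose by 2.12 ± 0.41 (adjusted p = 0.018), or 4.34-fold, with no overlap. Fap, a surface protease of activated fibroblasts, gave 63.5, 132 and 185 at day 3 and 27.8, 32.6 and 43.9 at day 1 (1.41 ± 0.27, adjusted p = 0.017). Mfap4 and Ltbp2, proteins of elastic microfibrils, rose by 1.36 ± 0.27 and 1.46 ± 0.36 (adjusted p = 0.02 and 0.041). Fndc1, a fibronectin domain protein outside the lists, gave 110.3, 277 and 329.9 at day 3 and 49.1, 42.6 and 67.2 at day 1, a rise of 1.78 ± 0.28 (adjusted p = 0.012), but its other probe set differed by 0.14. 2210407C18Rik, a gene known here by its identifier alone, rose by 1.94 ± 0.36 (adjusted p = 0.017).

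Ccn2, which encodes connective tissue growth factor, read 2388, 3039 and 4039 at day 3 and 6524, 8657 and 2839 at day 1, with a difference of -0.81 ± 0.31 (adjusted p = 0.16). Fn1, fibronectin, gave 591, 1351 and 1959 at day 3, against 1264, 2193 and 458 at day 1 (0.1 ± 0.49, adjusted p = 0.95). In both genes, picked after their values were seen, the groups overlapped and day 1 replicate 3 was the lowest of its group. Without that array, 7 list members rose and 3 fell, and with both outlying arrays left out, 11 rose and 3 fell. Without day 3 replicate 1, 9 rose, and 3 rose when day 3 replicate 3 or day 1 replicate 2 was left out.

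**Figure D2:**
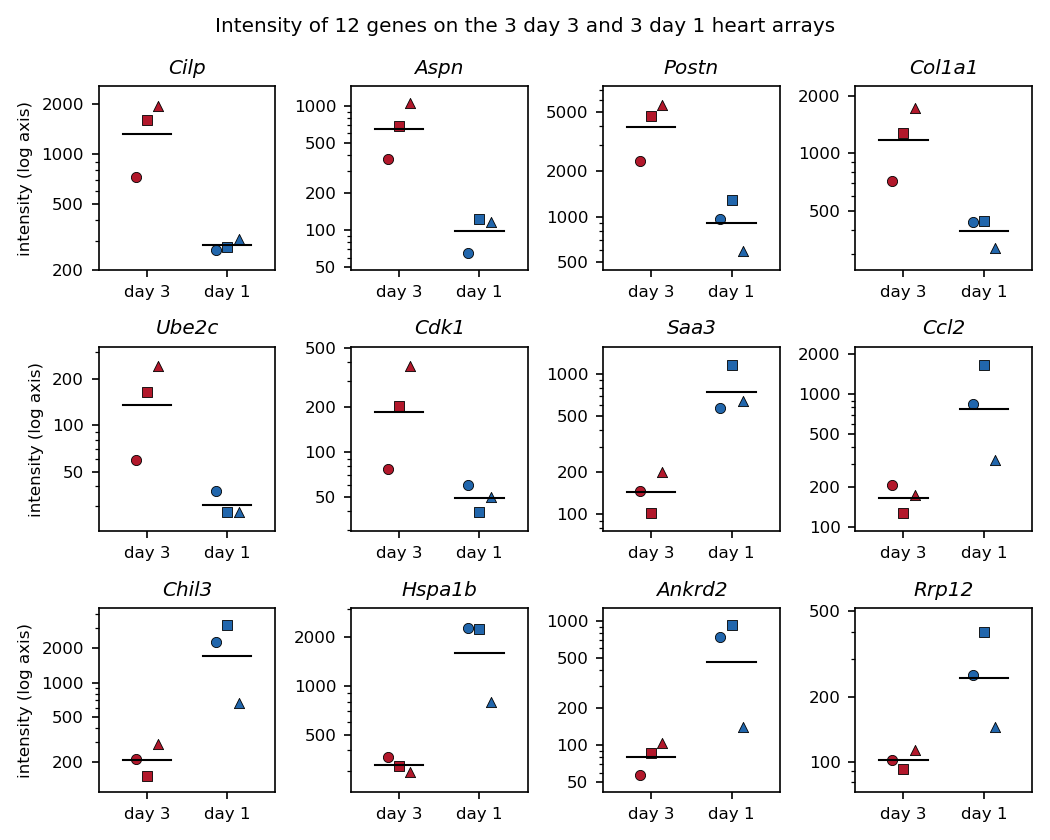
Points are intensities (log axis) of 12 genes on the 3 day 3 arrays (red, left) and the 3 day 1 arrays (blue, right), with circles, squares and triangles for replicates 1, 2 and 3 and a line at the mean of log2(intensity + 16), turned back to intensity. Cilp lies at 727 to 1937 on the day 3 arrays and at 264 to 308 on the day 1 arrays, while Hspa1b lies at 293 to 366 at day 3 and at 791 to 2278 at day 1.

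Small leucine-rich proteoglycans bind collagen fibrils and shape their assembly. Of 9 tested, 4 rose (44.4%), none fell, and the median was 0.71. Aspn, asporin, read 371, 688 and 1048 on the day 3 arrays, against 65.2, 124 and 117 on the day 1 arrays. Its lowest day 3 array was above its highest day 1 array, and it rose by 2.53 ± 0.35 (adjusted p = 0.0093), or 5.78-fold; its other probe set gave 2.01. Lum, lumican, gave 1814, 2148 and 2949 at day 3 and 814, 923 and 1192 at day 1, a rise of 1.21 ± 0.18 (adjusted p = 0.0097). Ogn, osteoglycin, gave 1554, 1782 and 2141 at day 3 and 643, 552 and 1187 at day 1, with day 1 replicate 3 the highest of its group (1.25 ± 0.23, adjusted p = 0.017). Bgn, biglycan, rose by 1.02 ± 0.21 (adjusted p = 0.021). The count was 5 without day 3 replicate 1 and without both outlying arrays, 2 without day 3 replicate 3 or day 1 replicate 2, and 0 without day 3 replicate 2 or day 1 replicate 1.

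Proteases of the matrix and their inhibitors were split. Of 17 tested, 3 rose and 1 fell, and the median was -0.12. Mmp2, a gelatinase made by fibroblasts, gave 522, 628 and 846 at day 3 and 298, 356 and 399.6 at day 1 and rose by 0.87 ± 0.18 (adjusted p = 0.022). Adamts5, an aggrecanase, and Timp2, a metalloproteinase inhibitor, rose by 0.7 ± 0.18 and 0.6 ± 0.15 (adjusted p = 0.043 and 0.041). The other probe sets of Timp2 gave -0.12 to 0.58. The fall was that of Mmp8, the neutrophil collagenase, which gave 22, 19.5 and 23 at day 3 and 85.4, 79.8 and 30.6 at day 1 and fell by 1.04 ± 0.23 (adjusted p = 0.028). It read only 14 to 25.3 on the day 0 and day 7 arrays. Mmp8 may therefore have met the filter on low values through day 1 alone, where it is high. Timp1, a further metalloproteinase inhibitor and looked up after its values were seen, gave 1284, 2438 and 3487 at day 3 and 4206, 5808 and 1224 at day 1, with overlap (-0.48 ± 0.51, adjusted p = 0.67). The counts were 3 rises and 5 falls without day 1 replicate 3 and without both outlying arrays, and 0 without day 3 replicate 3 or day 1 replicate 2.

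Genes of the TGF beta family, which drives collagen synthesis in fibroblasts, had a median of -0.01 over 21 tested, with 1 rise and 2 falls. Tgfb2, a ligand, read 113, 195 and 243 on the day 3 arrays and 470.4, 477 and 238 on the day 1 arrays. The highest day 3 array just passed the lowest day 1 array, and Tgfb2 fell by 1.04 ± 0.26 (adjusted p = 0.045). Fstl3, an activin antagonist, fell by 0.68 ± 0.18 (adjusted p = 0.049), and Ltbp3, which anchors latent TGF beta in the matrix, rose by 0.45 ± 0.11 (adjusted p = 0.036). Tgfb1, the best known ligand and looked up after its value was seen, differed by 0.03 ± 0.18 (adjusted p = 0.96). Without day 3 replicate 1, 3 of the family rose and none fell, and without day 1 replicate 3, 1 rose and 4 fell. With both left out, 3 rose and 4 fell, and without day 1 replicate 2 none did.

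**Figure D3:**
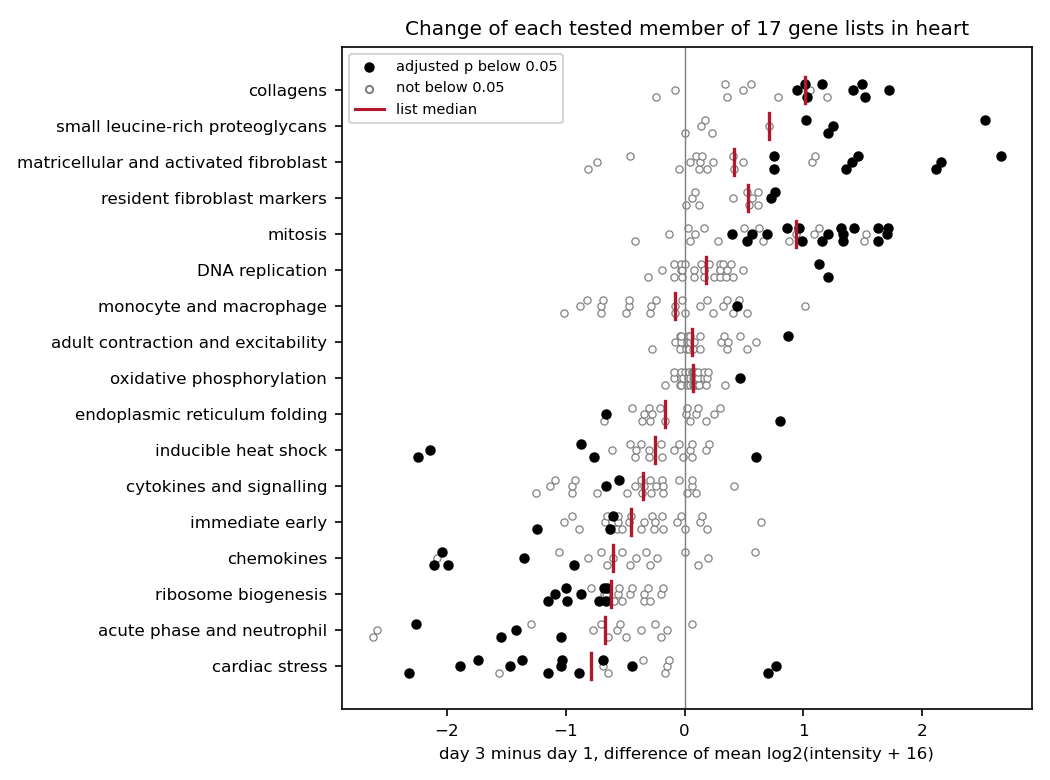
Each point is the day 3 minus day 1 difference of mean log2(intensity + 16) of a tested gene in 1 of 17 gene lists, filled where the adjusted p was below 0.05, and red lines are list medians. Collagens (median 1.01) and mitosis genes (0.94) lie to the right, and cardiac stress (-0.79), acute phase and neutrophil (-0.67) and ribosome biogenesis genes (-0.62) lie to the left.

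Genes of mitosis, the last step of the cell cycle, were higher at day 3, and those of DNA replication were little changed in the median. Of 33 mitosis genes tested out of 45 on the array, 17 rose (51.5%), none fell, and 31 had a positive difference, with a median of 0.94. The filter asked for 3 heart arrays, the size of 1 group, so a weak gene can enter through the day where it is high. The mitosis share and median may be raised by that, and 11 of the 33 were called in the fit without a filter. Of 28 replication genes, 2 rose and the median was 0.19. Replication counts moved with the arrays too, to 7 rises without day 3 replicate 1, 3 rises when day 1 replicate 3 was left out, 8 rises and 1 fall without both, and 0 without day 3 replicate 3 or day 1 replicate 2. The promoters of 4 genes that mark dividing cells are printed here from RefSeq (GRCm38.p6), since mitosis genes are known to share a pair of promoter motifs. Capitals mark the cell cycle homology region TTTGAA (or TTCAAA on the other strand) and the CCAAT box (or ATTGG). The windows run from 250 bases before to 50 bases after the gene start, 5′ to 3′ along the gene, at chr7:135716330-135716629 (minus strand) for Mki67, chr2:164769679-164769978 (plus) for Ube2c, chr10:69352863-69353162 (minus) for Cdk1 and chr11:99024140-99024439 (minus) for Top2a.
Mki67: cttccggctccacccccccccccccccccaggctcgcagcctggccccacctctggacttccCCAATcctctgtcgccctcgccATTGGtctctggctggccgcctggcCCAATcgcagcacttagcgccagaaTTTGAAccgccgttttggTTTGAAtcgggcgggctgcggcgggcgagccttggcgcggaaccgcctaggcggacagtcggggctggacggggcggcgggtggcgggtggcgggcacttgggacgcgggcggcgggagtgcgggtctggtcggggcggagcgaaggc
Ube2c: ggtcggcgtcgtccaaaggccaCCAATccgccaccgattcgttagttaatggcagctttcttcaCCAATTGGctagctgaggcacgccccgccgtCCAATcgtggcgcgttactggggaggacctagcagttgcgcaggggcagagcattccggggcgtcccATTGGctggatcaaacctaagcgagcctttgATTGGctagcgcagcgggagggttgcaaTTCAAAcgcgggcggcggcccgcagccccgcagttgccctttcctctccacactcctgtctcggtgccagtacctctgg
Cdk1: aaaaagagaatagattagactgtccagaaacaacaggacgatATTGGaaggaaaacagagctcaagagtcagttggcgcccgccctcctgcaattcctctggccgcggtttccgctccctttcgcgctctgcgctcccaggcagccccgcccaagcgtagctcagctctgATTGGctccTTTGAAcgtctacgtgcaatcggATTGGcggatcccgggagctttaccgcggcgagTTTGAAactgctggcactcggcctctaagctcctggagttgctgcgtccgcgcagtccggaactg
Top2a: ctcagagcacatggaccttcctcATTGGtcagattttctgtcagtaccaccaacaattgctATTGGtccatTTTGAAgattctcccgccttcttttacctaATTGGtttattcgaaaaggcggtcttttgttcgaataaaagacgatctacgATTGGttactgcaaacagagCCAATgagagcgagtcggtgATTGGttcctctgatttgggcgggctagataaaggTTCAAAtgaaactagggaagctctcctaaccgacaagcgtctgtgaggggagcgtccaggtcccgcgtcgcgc

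Promoters of 28 mitosis genes were in the RefSeq table. The letters TTTGAA, searched on both strands, were in 22 of them (78.6%), against 18.1% of 27025 promoters of that length and 3 of 24 replication promoters (12.5%). CCAAT was in 22 of the mitosis promoters (78.6%), against 37.9% of all promoters and 14 of 24 replication promoters (58.3%). Both stood together in 20 of 28 (71.4%), against 7.1% of all promoters. Among the 14 of these mitosis genes that rose and the 14 that did not pass, 11 each held TTTGAA, so the letters did not separate the called from the uncalled members. These are matches of letters, not measured binding.

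Ube2c encodes the ubiquitin-conjugating enzyme of the anaphase-promoting complex, and its promoter above holds 1 TTTGAA match. Its intensities were 58.9, 164 and 240.4 on the day 3 arrays, against 37.2, 27.3 and 27.5 on the day 1 arrays. All day 3 arrays were higher, replicate 3 the most, and Ube2c rose by 1.7 ± 0.32 (adjusted p = 0.017), or 3.26-fold. Cdk1, the kinase that starts mitosis, gave 77.2, 205 and 378 at day 3 and 59.9, 39.2 and 49.5 at day 1, a rise of 1.63 ± 0.36 (adjusted p = 0.028). Ccna2 and Ccnb2, cyclins that activate Cdk1, rose by 1.63 ± 0.33 and 1.43 ± 0.28 (adjusted p = 0.02 and 0.018). Anln, anillin of the cleavage furrow, rose by 1.33 ± 0.28 (adjusted p = 0.023), with 0.22 at its other probe set.

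Mki67, the proliferation marker Ki-67, read 66.2, 244 and 438 on the day 3 arrays, against 73.7, 33.6 and 46 on the day 1 arrays. Here the groups overlapped, since day 3 replicate 1 lay below the highest day 1 array, and the rise was 1.71 ± 0.44 (adjusted p = 0.047). Top2a, the topoisomerase that untangles sister chromatids and chosen after its values were seen, gave 61.9, 106 and 233 at day 3 and 48.9, 35 and 41.5 at day 1 and rose by 1.21 ± 0.29 (adjusted p = 0.037). For both, replicate 3 was the highest and replicate 1 the lowest of day 3. Leaving out day 3 replicate 1, or it and day 1 replicate 3 together, gave 25 mitosis calls, and leaving out day 1 replicate 3 gave 18. There were 5 rises and 1 fall without day 3 replicate 3, and 0 calls with the 6 arrays alone or when day 3 replicate 2, day 1 replicate 1 or day 1 replicate 2 was left out. The list median ranged between 0.6 and 1.37 over the alternatives.

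The replication genes that rose were Tk1, thymidine kinase, and Rrm2, a subunit of ribonucleotide reductase. Tk1 gave 52, 119 and 148 at day 3 and 37.8, 28.3 and 44.3 at day 1 and rose by 1.13 ± 0.25 (adjusted p = 0.027). Rrm2 gave 37.8, 107 and 139.9 at day 3 and 40, 18.7 and 26.5 at day 1, with overlap, and rose by 1.21 ± 0.3 (adjusted p = 0.041); its other probe sets gave 0.15 to 0.39. Pcna, the sliding clamp of replication, and Mcm5, part of the replicative helicase, differed by -0.03 ± 0.11 and 0.21 ± 0.25 (adjusted p = 0.92 and 0.7; both looked up after their values were seen). Of 14 regulators of the G1 phase, 1 rose, Ccng1, a p53-induced cyclin, by 0.49 ± 0.12 (adjusted p = 0.04), and the median was 0.08. Leaving out day 1 replicate 3, alone or with day 3 replicate 1, gave 3 rises and 1 fall, and leaving out day 3 replicate 1 alone gave 0 calls.

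Several chemokines were lower at day 3. These attractants of leukocytes had a median of -0.6 over 21 tested, with 5 falls (23.8%), no rise and 18 negative. Ccl2, the main attractant of monocytes, read 208, 127 and 173 on the day 3 arrays, against 841, 1668 and 318 on the day 1 arrays. All day 3 arrays were lower, day 1 replicate 3 was the lowest of its group, and Ccl2 fell by 2.11 ± 0.4 (adjusted p = 0.018), so that it was 4.3-fold lower at day 3. Cxcl1, an attractant of neutrophils, gave 438, 131 and 187 at day 3 and 1129, 1585 and 452 at day 1 and fell by 1.99 ± 0.43 (adjusted p = 0.025), with -2.55 and -0.85 at the ends of its other probe sets.

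Cxcl2, a related attractant of neutrophils, gave 41.8, 13.5 and 16.9 at day 3 and 252, 272 and 34.8 at day 1, overlapping at day 1 replicate 3, and fell by 2.04 ± 0.5 (adjusted p = 0.041). Ccl7, a further monocyte chemokine, and Cxcl10, an interferon-induced attractant of T cells, fell by 1.35 ± 0.31 and 0.93 ± 0.21 (adjusted p = 0.034 and 0.029). In the fit that left out day 1 replicate 3, 12 chemokines fell, in that without day 3 replicate 1, 4, and with both left out, 13. Only 1 fell without day 3 replicate 3, and likewise without day 1 replicate 2. Of 26 cytokines and signalling genes, 2 fell and the median was -0.35. The cytokine count was 13 falls when day 1 replicate 3 was left out, alone or with day 3 replicate 1, and 3 when day 3 replicate 1 alone was. It was 1 without day 3 replicate 3, and no cytokine gene passed when day 1 replicate 2 was left out. The genes that fell were Csf1, the growth factor of macrophages, with 602, 585 and 639 at day 3 and 948, 1279 and 758 at day 1 (-0.66 ± 0.15, adjusted p = 0.028; other probe sets -0.57 to 0.16), and Tnfaip3, a brake on NF-kB, at -0.55 ± 0.12 (adjusted p = 0.027). Il6, the cytokine that drives the acute phase response, gave 114, 23.7 and 83.1 at day 3 and 241, 419 and 45.5 at day 1, a difference of -1.25 ± 0.56 that did not pass (adjusted p = 0.24; looked up after its values were seen).

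Acute phase and neutrophil genes had a median of -0.67 over 18 tested, with 4 falls (22.2%), no rise and 17 negative. Saa3, an acute phase protein made in inflamed tissue, gave 146, 102 and 202 on the day 3 arrays and 571, 1151 and 643 on the day 1 arrays. The groups were far apart, and Saa3 fell by 2.26 ± 0.31 (adjusted p = 0.0093), 4.77-fold lower at day 3, a call that held in 11 of the 12 fits with 1 array left out. Lcn2, the iron-binding lipocalin of neutrophils and stressed epithelia, gave 492, 291 and 405 at day 3 and 1558, 1639.6 and 608 at day 1 and fell by 1.54 ± 0.4 (adjusted p = 0.046). Fpr2, a formyl peptide receptor of phagocytes, fell by 1.42 ± 0.35 (adjusted p = 0.04). Mmp8, given above as a weak gene that may have met the filter through day 1 alone, was also among these falls.

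S100a8 and S100a9 form calprotectin, the most abundant cytosolic protein of neutrophils. S100a8 gave 319.6, 88.8 and 619 at day 3, against 2397, 3128 and 662 at day 1, and S100a9 gave 366, 77.4 and 638 at day 3, against 2137, 3332 and 684 at day 1. No day 3 array reached a day 1 array, yet the spread within each day was wide and the differences of -2.62 ± 0.8 and -2.59 ± 0.88 did not pass (adjusted p = 0.082 and 0.11; both looked up after their values were seen). The summed intensity of 7 neutrophil markers was 470.9 to 1814 at day 3 and 1615 to 7585 at day 1, with day 1 replicate 3 the low one. Without that array 14 of the list fell, and with both outlying arrays left out 14 fell. The count was 3 without day 3 replicate 1 and 1 without day 3 replicate 3, day 1 replicate 1 or day 1 replicate 2.

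Macrophage genes as a group had a median near 0. Of 26 monocyte and macrophage genes, 1 rose, none fell and the median was -0.08, and the summed intensity of 8 macrophage markers was 9630 to 13484 at day 3 and 8486 to 12205 at day 1. The rise was that of Gpnmb, a glycoprotein of lipid-handling macrophages, at 0.44 ± 0.11 (adjusted p = 0.045), with 0.1 at its other probe set. Ccr2, the receptor of Ccl2 on monocytes and looked up after its values were seen, gave 109, 236 and 356 at day 3 and 404, 784 and 75.7 at day 1 (-0.47 ± 0.6, adjusted p = 0.74). The list median changed sign over the alternatives, between -0.33 and 0.2, with 1 rise and 7 falls without day 1 replicate 3, 3 rises and 5 falls without both outlying arrays, and 0 calls without day 3 replicate 3 or day 1 replicate 2.

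Within 12 genes of alternatively activated and resident macrophages, 1 rose and 1 fell. Chil3, also called Ym1, a chitinase-like lectin of mouse macrophages and of neutrophil precursors, had the largest fall of the comparison among genes whose groups were apart. It read 213, 152 and 290.4 on the day 3 arrays, against 2264, 3215 and 660.1 on the day 1 arrays, and fell by 2.91 ± 0.53 (adjusted p = 0.017), 7.5-fold lower at day 3. Cbr2, a carbonyl reductase of resident macrophages in mouse tissue, gave 655, 638 and 806 at day 3 and 465, 445 and 462 at day 1 and rose by 0.59 ± 0.15 (adjusted p = 0.042). Arg1, arginase of alternatively activated macrophages, gave 47.7, 56.8 and 197 at day 3 and 722, 1776 and 22.6 at day 1, with day 1 replicate 3 below all others, and did not pass (-1.9 ± 0.99, adjusted p = 0.31; looked up after its values were seen).

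Cytotoxic granule genes were lower at day 3. Gzmb, granzyme B of cytotoxic T and natural killer cells, gave 23.6, 22.1 and 23.5 on the day 3 arrays, against 250.3, 83.5 and 172 on the day 1 arrays. Day 3 values were low and close together, and Gzmb fell by 2.13 ± 0.27 (adjusted p = 0.0091), a call that held in 11 of the 12 fits with 1 array left out. Gzma, granzyme A, gave 28.8, 28.6 and 46.8 at day 3 and 173, 57.5 and 135 at day 1 and fell by 1.35 ± 0.31 (adjusted p = 0.03). These were 2 of 11 T and natural killer cell genes tested (18.2%), with a median of -0.29, and the summed intensity of 6 markers was 217.8 to 238.9 at day 3 and 323.3 to 621.6 at day 1. Unlike the neutrophil genes, day 1 replicate 3 was not the low array here. The falls numbered 4 without it, 2 without both outlying arrays and 1 without day 3 replicate 1. Of 22 interferon-induced genes, none passed with all 12 arrays, while 20 were negative and the median was -0.47. For 7 of the 22 all day 3 arrays lay below all day 1 arrays, against 7.11% of all genes. Irf7, the interferon regulatory factor with the smallest p of that list, gave 99.9, 107 and 87.3 at day 3 and 163, 133 and 228 at day 1 (-0.71 ± 0.3, adjusted p = 0.21). Day 1 replicate 3 was the highest array of the interferon list, at 0.48 in the list median relative to the 6-array mean. Without it the median difference was -0.26, with both outlying arrays left out it was -0.24, and no gene passed in either fit. Day 0 replicate 1 stood at 1.08 in this list median, against -0.09 and -0.1 on the other day 0 arrays, and it enters the pooled spread. Over the fits that left out 1 array, the list held at most 2 calls. None of 7 MHC class II genes (median -0.11) and none of 4 B cell genes (median 0.04) passed.

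Among endothelial genes 1 passed. Selp, P-selectin, which lets leukocytes roll on activated endothelium and platelets, gave 79.3, 77.5 and 96.1 on the day 3 arrays and 516, 718 and 104 on the day 1 arrays. It fell by 1.85 ± 0.47 (adjusted p = 0.045), a call that held in 1 of the 12 fits with 1 array left out. The other 18 endothelial genes tested did not pass, and the list median was -0.07. Without day 1 replicate 3, 2 of the list fell, and without day 3 replicate 1, 1 rose. The sum of 4 endothelial markers was 1060 to 1477 at day 3 and 1306 to 1459 at day 1.

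Heat shock genes were represented by a few large falls. Of 22 inducible heat shock genes, 4 fell (18.2%), 1 rose and the median was -0.25. The promoters of Hspa1b and Hspa1a, which encode the inducible Hsp70 and fell the most, are shown because they are near copies of each other. Both come from RefSeq (GRCm38.p6), both on the minus strand, at chr17:34959189-34959488 for Hspa1b and chr17:34972107-34972406 for Hspa1a, and capitals mark the only match to a heat shock element, GAANNTTC.
Hspa1b: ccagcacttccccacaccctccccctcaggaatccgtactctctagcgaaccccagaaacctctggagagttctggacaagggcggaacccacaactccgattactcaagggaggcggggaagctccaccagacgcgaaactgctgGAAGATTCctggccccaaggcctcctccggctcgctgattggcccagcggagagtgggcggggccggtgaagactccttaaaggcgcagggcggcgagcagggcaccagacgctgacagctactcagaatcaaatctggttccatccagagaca
Hspa1a: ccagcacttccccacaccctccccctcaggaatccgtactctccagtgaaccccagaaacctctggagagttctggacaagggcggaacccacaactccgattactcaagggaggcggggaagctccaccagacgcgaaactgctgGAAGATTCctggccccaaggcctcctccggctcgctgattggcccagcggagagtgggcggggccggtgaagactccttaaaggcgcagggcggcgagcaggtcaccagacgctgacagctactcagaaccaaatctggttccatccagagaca
These windows were identical at 296 of 300 positions. GAANNTTC, searched on both strands, was in 10 of 19 heat shock promoters of the table (52.6%), against 8.0% of all promoters. Differences of genes with a match ran from -2.24 (Hspa1b) to 0.6 (Fkbp4), and of genes without from -0.61 (Dnajb1) to 0.21 (Hspa4l). The ranges overlapped, and these are matches of letters, not measured binding.

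Hspa1b gave 366, 319 and 293 on the day 3 arrays, against 2278, 2248 and 791 on the day 1 arrays. Day 3 values were close together and day 1 replicate 3 was the lowest of its group but above all of day 3. Hspa1b fell by 2.24 ± 0.32 (adjusted p = 0.0093), 4.74-fold lower at day 3. Hspa1a gave 114, 100.4 and 112 at day 3 and 679, 907 and 246 at day 1 and fell by 2.14 ± 0.33 (adjusted p = 0.01). Probes may not separate transcripts of such similar genes, so the values of each are uncertain apart from the other.

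Hspb1, the small heat shock protein Hsp27, gave 7575, 9056 and 10258 at day 3, against 17728, 21229.5 and 11428 at day 1, and fell by 0.87 ± 0.18 (adjusted p = 0.022). Hsp90aa1, the inducible Hsp90, fell by 0.76 ± 0.2 (adjusted p = 0.049). Fkbp4, a cochaperone of steroid receptors, rose by 0.6 ± 0.13 (adjusted p = 0.029), with 0.09 and 0.1 at its other probe sets. When day 1 replicate 3 was left out, 10 of the list fell and 1 rose, and 3 fell when day 3 replicate 1 was. With both left out, 9 fell and 1 rose, and 3 and 2 fell without day 3 replicate 3 and day 1 replicate 2. In the endoplasmic reticulum folding list, 1 of 19 rose and 1 fell (median -0.16), with 5 falls without day 1 replicate 3 and 3 without both outlying arrays. Xbp1, a transcription factor of the unfolded protein response, gave 1627, 1704 and 1993 at day 3 and 3167, 2950.4 and 2362 at day 1 and fell by 0.66 ± 0.12 (adjusted p = 0.016). Herpud1, of the degradation arm of that response, gave 1621, 1354 and 1219 at day 3 and 837, 619 and 957 at day 1 and rose by 0.8 ± 0.17 (adjusted p = 0.022).

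Immediate early genes, which respond to stimuli within minutes, had 25 of 29 members negative, a median of -0.45, 3 falls (10.3%) and no rise. Gadd45g, a stress-induced growth arrest gene, gave 366, 386 and 465 at day 3 and 879, 1848 and 564 at day 1 and fell by 1.24 ± 0.3 (adjusted p = 0.037). Klf2, a transcription factor induced by flow in endothelium, gave 321, 310.1 and 325 at day 3 and 422, 561 and 529.6 at day 1 and fell by 0.63 ± 0.11 (adjusted p = 0.017). Klf6 fell by 0.6 ± 0.15 (adjusted p = 0.043). Fos and Egr1, the best known members and looked up after their values were seen, differed by -0.89 ± 0.29 and -0.95 ± 0.29 without passing (adjusted p = 0.098 and 0.077). With day 1 replicate 3 left out, alone or with day 3 replicate 1, 16 of the list fell, and with day 3 replicate 1 alone left out, 4. The count was 1 without day 3 replicate 3 or day 1 replicate 1 and 0 without day 1 replicate 2. None of 15 metallothionein and glucocorticoid-responsive genes passed with all 12 arrays (median -0.26). Without day 1 replicate 3, 6 of them fell (median -0.45), without day 3 replicate 1, 1 fell (median -0.37), and with both left out, 8 fell (median -0.56). Angptl4, an inhibitor of lipoprotein lipase with the smallest p of that list, gave 157, 156 and 275 at day 3 and 680.3, 905 and 188 at day 1 (-1.31 ± 0.43, adjusted p = 0.1).

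Genes of ribosome biogenesis, which process ribosomal RNA in the nucleolus, were all lower. All 24 tested had a negative difference, against 47.2% of all genes, with a median of -0.62, 9 falls (37.5%) and no rise. Rrp12, an export factor of ribosomal subunits, gave 101, 92.8 and 113 on the day 3 arrays, against 252, 401 and 145 on the day 1 arrays, and fell by 1.15 ± 0.24 (adjusted p = 0.023). Nop56 and Nop58, core proteins of box C/D small nucleolar particles, fell by 0.87 ± 0.21 and 0.99 ± 0.23 (adjusted p = 0.038 and 0.035). Gnl3, nucleostemin, gave 277, 323 and 347 at day 3 and 715, 1012 and 369 at day 1 and fell by 1 ± 0.26 (adjusted p = 0.046). Mybbp1a, a nucleolar Myb-binding protein, fell by 0.72 ± 0.15 (adjusted p = 0.021). Heatr1, a factor for pre-ribosomal RNA synthesis, fell by 1.09 ± 0.24 (adjusted p = 0.029), but its other probe sets gave -0.19 to 0.02.

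For these genes the day 3 arrays were alike and day 1 replicate 3 lay nearest to them. Ribosome biogenesis falls numbered 20 without that array and 19 without both outlying arrays, and 3 when day 3 replicate 1 alone was left out. They numbered 2 without day 3 replicate 3, and 0 without day 3 replicate 2, day 1 replicate 1 or day 1 replicate 2, though the median stayed between -0.84 and -0.4 under every alternative. Myc, a known activator of this group, gave 50, 53.7 and 58.7 at day 3 and 172, 239 and 45.6 at day 1, with a difference of -1.03 ± 0.36 (adjusted p = 0.12; looked up after its values were seen). The E box CACGTG, the letters that Myc is known to bind, was in 5 of 20 promoters of the list (25.0%), against 7.2% of all promoters. These are matches of letters, and a part of Myc in the falls was not tested. The letters GGGNNTTCC, searched as a short form of an NF-kB site, were in 3 of 14 chemokine promoters (21.4%), against 5.7% of all promoters. They were in 0 of 15 acute phase and neutrophil promoters. Longer forms of the site do not match these letters and were not searched. The counts therefore do not show which promoters hold or lack NF-kB sites.

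Cardiac stress genes, induced in cardiomyocytes under load, had the lowest median of the lists shown, -0.79 over 20 tested, with 11 falls (55.0%) and 2 rises. Ankrd2, a titin-binding ankyrin repeat protein induced by stretch, gave 57.2, 86.2 and 104 on the day 3 arrays and 744, 921 and 141 on the day 1 arrays. Day 1 replicate 3 was again far below the other day 1 arrays, though above day 3, and Ankrd2 fell by 2.32 ± 0.48 (adjusted p = 0.021), 5-fold lower at day 3. Flnc, filamin C of the Z disc, gave 667, 880.4 and 914 at day 3, against 3482, 4053 and 1479.5 at day 1, and fell by 1.74 ± 0.28 (adjusted p = 0.012). Lmcd1, a LIM protein that takes part in hypertrophy, gave 253, 216 and 311 at day 3 and 962, 2028 and 504 at day 1 and fell by 1.89 ± 0.35 (adjusted p = 0.017).

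Synpo2l, a Z disc protein, fell by 1.47 ± 0.23 (adjusted p = 0.012) and Fhl1, a LIM protein that senses stretch at titin, by 1.15 ± 0.19 (adjusted p = 0.012), though the other probe set of Fhl1 gave 0.05. Myh7, the fetal beta myosin heavy chain, gave 5066, 2193 and 1940.1 on the day 3 arrays, against 6897, 7441 and 7270.1 on the day 1 arrays. Day 3 replicate 1 stood above its group here, and Myh7 fell by 1.37 ± 0.31 (adjusted p = 0.03). The rises were those of Acta1, skeletal alpha actin, which is re-expressed in hypertrophy, and of Mybpc2, a myosin-binding protein of fast muscle. Acta1 gave 5437, 5779 and 6417 at day 3 and 3522, 4325 and 2662 at day 1 and rose by 0.77 ± 0.2 (adjusted p = 0.045), a call that held in 1 of the 12 fits with 1 array left out. Mybpc2 rose by 0.7 ± 0.14 (adjusted p = 0.02).

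The natriuretic peptides, secreted by stretched cardiomyocytes, did not pass: Nppb differed by -0.69 ± 0.2 (adjusted p = 0.072) and Nppa by -0.13 ± 0.14 (adjusted p = 0.68), both looked up after their values were seen. With day 3 replicate 1 left out, 10 cardiac stress genes fell, with day 1 replicate 3 left out, 15, and with both left out, 14. The falls numbered 10 without day 3 replicate 3 and 5 when day 1 replicate 2 was left out, and none was called without day 3 replicate 2 or day 1 replicate 1. Genes of adult contraction and excitability had a median of 0.06 over 24 tested, with 1 rise. It was Scn4b, a sodium channel subunit, which gave 90.3, 86.3 and 114 at day 3 and 36.3, 45.6 and 56.1 at day 1 (0.87 ± 0.16, adjusted p = 0.017). Myh6, the adult alpha myosin heavy chain and looked up after its values were seen, differed by 0.01 ± 0.09 (adjusted p = 0.97). Of this list, 7 rose without day 1 replicate 3 and 6 without both outlying arrays.

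Metabolic genes moved little as groups. Fatty acid oxidation had a median of -0.0 over 27 tested with 2 rises, oxidative phosphorylation 0.07 over 35 with 1 rise, and glycolysis 0.08 over 18 with 3 rises and 1 fall. Without day 1 replicate 3 the rises numbered 3, 2 and 7 in these lists, and without both outlying arrays 3, 2 and 5. The oxidation rises were those of Ppargc1a and Ppara, regulators of mitochondrial and fatty acid genes. Ppargc1a gave 1776, 1466 and 1677 at day 3 and 906, 829 and 1369.5 at day 1 and rose by 0.69 ± 0.17 (adjusted p = 0.041). Ppara rose by 0.7 ± 0.18 (adjusted p = 0.045), a call that held in 1 of the 12 fits with 1 array left out. Sdhd, a subunit of complex II, rose by 0.47 ± 0.1 (adjusted p = 0.023).

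In glycolysis, Pgam2, the muscle phosphoglycerate mutase, gave 5981, 6248 and 5675 at day 3 and 3817, 3676 and 4429 at day 1 and rose by 0.59 ± 0.1 (adjusted p = 0.013). The other rises were Pfkl and Tpi1, enzymes of the same pathway, at 0.62 ± 0.15 and 0.4 ± 0.1 (adjusted p = 0.037 and 0.043). Slc2a1, the glucose transporter Glut1, gave 264, 247 and 311 at day 3 and 546, 688 and 335 at day 1 and fell by 0.84 ± 0.19 (adjusted p = 0.031). Its direction was opposite to that of the called enzymes. Nr1d1, a repressor in the circadian clock, was the only one of 17 clock genes to pass with all 12 arrays, at -0.55 ± 0.13 (adjusted p = 0.035), and the hour of sampling is not stated in the sources used here.

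Among other cell types, 1 of 15 smooth muscle and pericyte genes rose, Smtn, smoothelin, by 0.5 ± 0.13 (adjusted p = 0.048). None of 8 adipocyte, 10 epicardial and mesothelial, 9 atrial, 8 skeletal muscle and 3 red cell genes passed with all 12 arrays, while with both outlying arrays left out 2 adipocyte genes rose and 1 skeletal muscle gene fell. The atrial list had a median of -0.04, but day 3 replicate 1 stood at -0.41 relative to the 6-array mean in the median of that list, and 2 of its genes rose when both outlying arrays were left out. In all, 108 of the 653 distinct genes tested from 37 lists were called, against 607 of all 13966 genes (4.35%). The lists were chosen with earlier results of these data known, so a higher share in them is built in and is not a result.

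The medians of whole lists can be followed array by array. Relative to the 6-array mean of each gene, the mitosis median stood at -0.18, 0.5 and 1.04 on the day 3 arrays, against -0.31, -0.54 and -0.51 on the day 1 arrays. The collagen median stood at -0.11, 0.56 and 1.05 on the day 3 arrays, against -0.42, -0.27 and -0.6 on the day 1 arrays. In both, day 3 replicate 1 was near the day 1 arrays. The cardiac stress median stood at -0.53, -0.4 and -0.23 on the day 3 arrays, against 0.44, 0.69 and -0.02 on the day 1 arrays. The acute phase and neutrophil median stood at -0.47, -0.45 and -0.21 at day 3, against 0.61, 0.86 and -0.21 at day 1. In these lists it was day 1 replicate 3 that lay near the other day, so a single array of each day decided where the groups met.

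**Figure D4:**
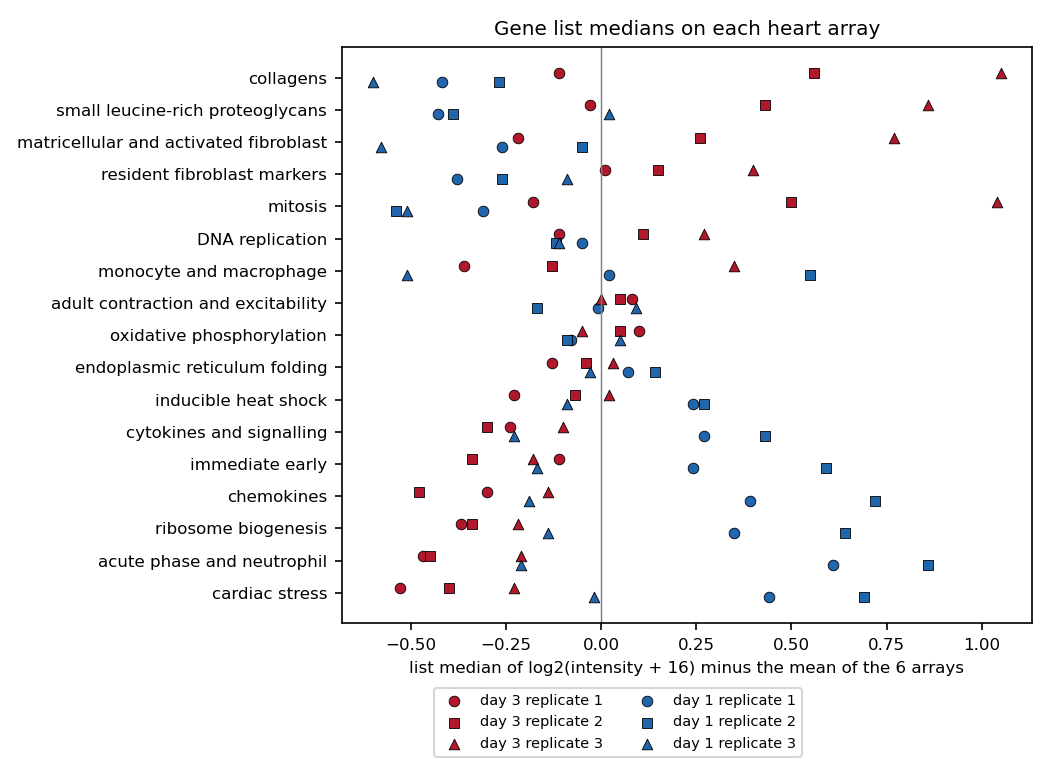
Each point is the median over a gene list, on 1 array, of log2(intensity + 16) minus the mean of the 6 arrays for each gene, red for day 3 and blue for day 1. Day 3 replicate 1 is the lowest day 3 array for collagens (-0.11) and mitosis (-0.18), and day 1 replicate 3 is the lowest day 1 array for chemokines (-0.19) and ribosome biogenesis (-0.14).

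Levels at day 0 and day 7 place these differences without a further test, since they share arrays with the fit. Of the 400 rises, the day 0 mean was at or above the day 3 mean for 177, between day 1 and day 3 for 198 and at or below day 1 for 25. Of the 207 falls, it was at or below day 3 for 94 and between the 2 days for 113, and for none was it at or above day 1. Postn gave 627, 571 and 1509 on the day 0 arrays and 1901, 3627 and 2255 on the day 7 arrays, so that day 7 lay between day 1 and day 3 in its mean. Cilp gave 368, 322 and 412 at day 0 and 1126, 1991 and 1287 at day 7, near its day 3 values. Ogn and Dpt, by contrast, already read 1839.6, 1666 and 1968 and 2127, 1739 and 2252 at day 0, so their day 1 values lay below those of day 0. Htra3, Mmp2 and Timp2 were likewise lower on every day 1 array than on every day 0 array. Aspn gave 262, 191 and 287 at day 0, between its day 1 and day 3 values. The collagen list median at day 0, by contrast, was -0.5, -0.57 and -0.53 relative to the 6-array mean, near its day 1 values. Col14a1, the largest collagen rise, departed from this list median. It gave 156, 147 and 216 at day 0, above all its day 1 arrays, and its day 0 mean lay between those of day 1 and day 3.

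Cdk1 gave 54.1, 43.3 and 44.1 at day 0 and 67.2, 77.4 and 91.5 at day 7, with the day 3 mean above both. Ccl2 gave 86, 66.2 and 84.6 at day 0 and 76.8, 72.6 and 71.3 at day 7, below all day 3 arrays. Hspa1b gave 119, 150.3 and 197 at day 0 and 216, 241 and 191 at day 7, also below all day 3 arrays. Chil3 gave 20.8, 27.8 and 63 at day 0 and 53.6, 64.3 and 196 at day 7. Among genes of the myocyte, Ankrd2 gave 28.8, 31.8 and 33.6 at day 0 and 37.8, 37.7 and 37.3 at day 7, below its day 3 values of 57 to 104. Myh7 gave 353, 540.1 and 578 at day 0 and 4094, 3424 and 5933 at day 7, so it was above day 0 on all treated arrays.

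Kidneys of the same study, 2 arrays per day, showed few calls for the same contrast. Of 14149 genes tested, 6 (0.0424%) were called, all lower at day 3, and 1471 (10.4%) had an unadjusted p below 0.05. Of the genes that rose in heart, 199 of 383 tested in kidney (52.0%) were positive there, against 50.6% of all kidney genes, with a median of 0.62 in heart and 0.01 in kidney. Of those that fell, 136 of 200 (68.0%) were negative in kidney, against 49.4% of all kidney genes, with medians of -0.71 in heart and -0.07 in kidney. Some whole lists moved as in heart: 16 of 17 collagens were positive in kidney (median 0.33), and 3 of 27 immediate early genes were (median -0.3). Kidney medians were nearer 0 for mitosis (0.09, 19 of 28 positive), ribosome biogenesis (-0.04, 9 of 24) and cardiac stress (-0.02, 9 of 20). The difference of the differences, heart minus kidney, passed an adjusted p below 0.05 in a joint limma fit for 63 of 14657 genes (0.43%), 48 positive (0.327%) and 15 negative (0.102%). Among the genes named above, Aspn differed by 2.77 ± 0.52 between the organs (adjusted p = 0.044), with 2.53 ± 0.35 in heart and -0.24 in kidney. Its kidney intensities of 21.9 to 32.8 were near background, so a change there could hardly be seen. Fhl1 differed by -1.55 ± 0.27 (adjusted p = 0.044), with 0.4 in kidney. Neither Cilp (1.82 ± 0.54, adjusted p = 0.13) nor Col3a1 (0.35 ± 0.66, adjusted p = 0.89) passed that test, and Col3a1 differed by 1.06 in kidney. When heart day 1 replicate 3 was left out, 925 genes passed, and when heart day 3 replicate 2 was, 1 did.

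**Figure D5:**
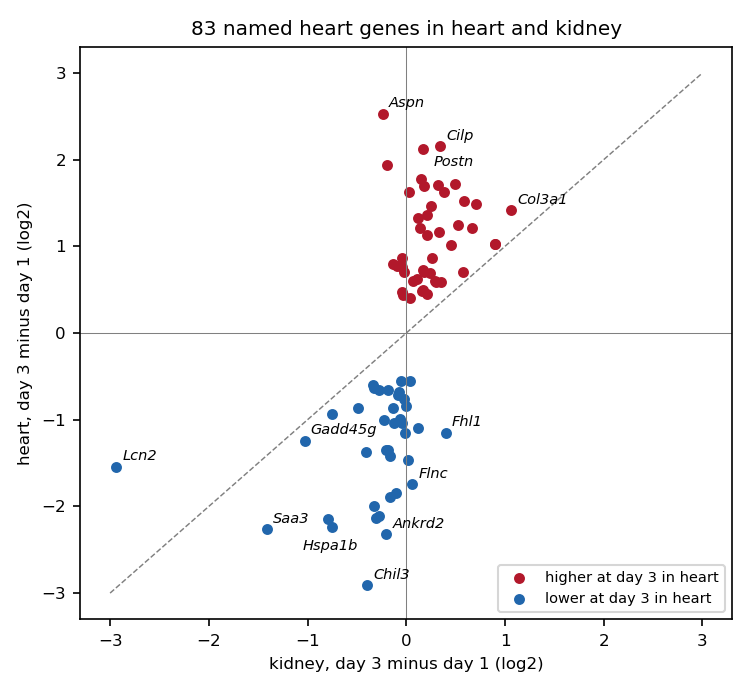
Each point is a named gene that was called in heart and tested in kidney, with its day 3 minus day 1 difference of mean log2(intensity + 16) in kidney on the x axis and in heart on the y axis, and the dashed line marks equal differences. Of 45 genes higher at day 3 in heart (red), 36 are positive in kidney, and of 38 lower at day 3 (blue), 32 are negative in kidney, most of them close to 0. The named genes are a selection. Over all genes called in heart and tested in kidney, 52.0% of rises were positive there and 68.0% of falls negative. Over all kidney genes these shares were 50.6% and 49.4%.

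The vessel gave 1 array per day, so its values have no replicate check and no test. Day 3 minus day 1, the median over all genes was -0.03, and 46.8% were positive. All 17 collagens tested in heart were higher on the day 3 vessel array, with a median of 1.68, and the mitosis median was 1.16, with 29 of 33 positive. Col1a1 differed by 2.61, Postn by 1.92 and Cdk1 by 1.43. For chemokines the vessel median was 0.36, opposite in sign to the heart median of -0.6, and Ccl2 differed by 1.37. For ribosome biogenesis it was 0.06 and for cardiac stress -0.13. Hspa1b differed by 0.05 there.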

How the data were processed

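Heart arrays were grouped by title. The deposited values are linear intensities, 1 per probe set and array. The submitters' processing notes name Affymetrix Expression Console as the program the authors used. Its algorithm, version and settings are not stated in the sources used here. Intensities ran from 3.18 to 22424 and array medians from 35.2 to 37.8, a common scale, so nothing was normalized again. The number of arrays limits the precision.

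Of 45101 probe sets, 64 are controls, 34945 have 1 gene symbol, 932 several and 9160 none. RefSeq held 34741 of the single ones under the same Entrez identifier and changed 0 names. For each of 18193 genes the probe set of highest mean over the 30 arrays was used, a choice open to 9010 genes. All tests used log2(intensity + 16), so folds of weak signals are understated. To enter, a gene had to exceed its array's 40th percentile on 3 or more heart arrays (13966 genes) or 2 or more kidney arrays (14149 genes). These numbers equal the group sizes, so a weak gene can enter through the 1 day on which it is high. Shares and medians of lists with many weak genes, such as mitosis, can be affected by this.

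Group means of the 12 heart arrays were estimated with limma 3.58.1 (R 4.3.3), and day 3 minus day 1 was tested with moderated statistics and Benjamini-Hochberg adjustment over all genes tested, with a threshold of 0.05. Kidney (8 arrays) was treated likewise, and heart minus kidney was a contrast in a joint fit of 20 arrays. The 37 gene lists and the genes compared were chosen with earlier results of these data known. By rule, the text draws its names from the 10 largest rises and falls past the threshold whose groups were apart, up to 6 called members of each list in each direction or up to 3 with the smallest p, and the 5 largest organ differences each way. Other genes are said to be chosen after their values were seen. On simulated data of 13966 genes for this comparison, 65.7% of genes changed by 1.5-fold were recovered, 92.5% by 2-fold and 98.5% by 4-fold, and 7 unchanged genes were called. The simulated noise was normal, independent between genes and equal in spread over the 12 arrays. The real arrays had unequal spread and outlying arrays, so these rates need not hold for them. Other software was matplotlib 3.10.9, numpy 2.4.6, pandas 2.3.3 and Python 3.11.15. The tests were repeated with no filter, with quantile normalization, with all probe sets averaged, with trended or robust variances, with 1 or 64 added in place of 16, with a replicate block, with the compared groups alone and with every array omitted in turn. Omitting 2 arrays together was added after the data were seen.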

Additional observations from a re-analysis of the deposited data

Results flagged for a closer look

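The difference between the organs in day 3 minus day 1 was tested directly in the joint fit, and 63 genes passed. Each gene below is given as heart minus kidney on the log2 scale, and all passed an adjusted p below 0.05 in limma with all 20 arrays.

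On the positive side, Fgg and Fga, which encode chains of fibrinogen, differed by 3.29 ± 0.53 and 2.67 ± 0.48 (adjusted p = 0.042 and 0.044). Fgg was near background in heart, at 11 to 13.8 on the day 3 arrays and 12.5 to 14.2 on the day 1 arrays. In kidney Fgg read 148 and 96.2 at day 3, against 616 and 2852 at day 1. Fga read 391 and 233 at day 3 in kidney, against 1050 and 3993 at day 1, so for both the difference came from kidney. Cfi, complement factor I, differed by 2.34 ± 0.43 (adjusted p = 0.044), with 0.22 in heart and -2.12 in kidney. Aspn, asporin, differed by 2.77 ± 0.52 (adjusted p = 0.044), with 2.53 in heart and -0.24 in kidney. In kidney it was near background, at 21.9 and 24.3 at day 3 and 32.8 and 27.4 at day 1, so a change there could hardly be seen. Aldh1a1, a retinal dehydrogenase, differed by 2.01 ± 0.4 (adjusted p = 0.044), with 0.63 in heart and -1.38 in kidney.

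On the negative side, Fhl1 differed by -1.55 ± 0.27 (adjusted p = 0.044), with -1.15 in heart and 0.4 in kidney. Nrap, a protein of the myocyte's myofibril anchors, differed by -1.21 ± 0.23 (adjusted p = 0.044), with -1.26 in heart and -0.05 in kidney. It read 1350, 1277 and 1256 on the day 3 heart arrays, against 3195, 3891 and 2434 on the day 1 heart arrays. Odc1, the first enzyme of polyamine synthesis, differed by -1.37 ± 0.28 (adjusted p = 0.046), with -0.65 in heart and 0.73 in kidney. Slc7a13, an amino acid transporter of the proximal tubule, and Miox, the inositol oxygenase of kidney, differed by -1.43 ± 0.21 and -0.96 ± 0.19 (adjusted p = 0.028 and 0.044). Their heart differences were 0.01 and -0.04, and their kidney differences 1.44 and 0.93. In heart both were near background at days 3 and 1, Slc7a13 at 23.6 to 34.4 and Miox at 18.5 to 29, so these differences came from kidney. Slc7a13 passed in 16 of 20 fits that left out 1 array, Fgg in 7, Fga in 6, and Odc1, Miox and Aldh1a1 in 3 each.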

How the results depend on the processing

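In heart, 607 genes were called between day 3 and day 1. With the replicate number as a block 340 were called (222 rises, 118 falls; 332 shared with the 607), and with only the groups compared 0. Leaving out 1 array at a time gave 0 to 2057, and leaving out day 1 replicate 3 and day 3 replicate 1 together gave 2127. Without a filter the count was 508, of which 470 were shared with the 607. It was 844 after quantile normalization (588 shared), 592 with the mean of all probe sets (449 shared), 665 and 586 with trended and robust variances, and 484 and 664 with added values of 1 and 64. Same-numbered arrays of day 3 and day 1 deviated from their group means with correlations of -0.0445, -0.198 and -0.331, so they did not deviate alike. Deviations from a mean of 3 arrays depend on each other, and each day held an outlying array. The correlations therefore cannot decide whether the numbers link samples, which the titles do not state. Of 87 named genes called, 47 passed under every other filter, scale, normalization, variance and block. In kidney the 6 calls became 1 without a filter, after quantile normalization, with the mean of all probe sets and with an added value of 1, 2 with the block, 0 with only the groups compared, 8 with trended or robust variance and 7 with an added value of 64, and 0 to 106 when 1 array was left out. For heart minus kidney the 63 calls became 113 after quantile normalization, 99 with the mean of all probe sets, 3 and 127 with added values of 1 and 64, 2 with the block, 0 with only the groups compared, and 1 to 925 when 1 array was left out. The causes of these changes were not tested. Fits with fewer arrays have fewer degrees of freedom by construction. The main heart fit also pools in days 0 and 7, which spread less than the days compared, and the part of this in the counts was not tested.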

Other observations

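Intensities in day 3 and day 1 hearts spread more within their groups than those of the other days. The median standard deviation of log2(intensity + 16) over genes was 0.149 at day 3 and 0.145 at day 1, against 0.112 at day 0 and 0.1 at day 7. The differences were not tested.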
